A study of Mus musculus with 40 samples.

Results

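The potassium channel genes of the mouse were described here across 40 libraries of the ventral tegmental area, the midbrain region that holds the dopamine neurons projecting to the nucleus accumbens and cortex. A gene was a member if its symbol was Kcn followed by 1 to 3 letters and a number, which gave 92 genes of 55471 in the count table, all protein coding. Of these, 81 had enough reads to be tested. The 11 that did not were Kcna7, Kcna10, Kcne1, Kcne3, Kcnj1, Kcnj13, Kcnj15, Kcnk7, Kcnk16, Kcnk18 and Kcnmb3.

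The study compared adult mice that had gone through repeated cross-fostering (RCF), in which pups were passed to a new adoptive mother on each day from PD1 to PD4, with unhandled controls. The 8 groups held 5 libraries each from adult mice: RCF and unhandled control males and RCF and unhandled control females, in DBA and in C57/Bl6 (here C57). RNA came from tissue punches of frozen brain, and libraries held 16913124 to 28179071 counted reads. The labels name no animal or litter, so the spread behind each p-value is that of libraries and may in part be technical.

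Potassium channels let potassium leave the cell and so set the resting potential, end each action potential and space the next one. Voltage-gated (Kv) channels open on depolarization, SK and Slo channels on calcium or sodium, and inward rectifiers carry current near rest, either under the control of G proteins (GIRK) or of cellular ATP (KATP). In midbrain dopamine neurons the A-type channel Kv4.3, the SK3 channel and the GIRK2 channel are known for pacing slow regular firing and for the D2 autoreceptor brake.

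The 4 channel genes below rose most firmly with Th, or form the dopamine autoreceptor's channel, and their promoters are shown to let the sequences be compared. Each run is 250 bases before to 50 bases after the first start that RefSeq lists (GRCm38.p6), in the direction of the gene, with the GC box GGGCGG or its reverse complement in capitals. Kcnd3 lies at chr3:105451640-105451939 on the plus strand, Kcnn3 at chr3:89519914-89520213 on the plus strand, Kcns3 at chr12:11150793-11151092 on the minus strand and Kcnj6 at chr16:94997647-94997946 on the minus strand.
Kcnd3: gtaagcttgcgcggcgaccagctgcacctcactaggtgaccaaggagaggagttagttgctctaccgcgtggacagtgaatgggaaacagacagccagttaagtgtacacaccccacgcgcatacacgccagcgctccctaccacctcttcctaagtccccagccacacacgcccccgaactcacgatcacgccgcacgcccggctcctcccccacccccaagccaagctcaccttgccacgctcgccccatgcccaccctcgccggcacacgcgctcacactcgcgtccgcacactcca
Kcnn3: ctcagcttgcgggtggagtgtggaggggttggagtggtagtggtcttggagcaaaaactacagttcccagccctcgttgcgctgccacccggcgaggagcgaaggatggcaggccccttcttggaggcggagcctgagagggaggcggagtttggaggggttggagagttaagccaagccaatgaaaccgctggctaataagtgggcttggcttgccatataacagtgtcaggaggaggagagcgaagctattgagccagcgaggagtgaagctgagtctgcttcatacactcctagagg
Kcns3: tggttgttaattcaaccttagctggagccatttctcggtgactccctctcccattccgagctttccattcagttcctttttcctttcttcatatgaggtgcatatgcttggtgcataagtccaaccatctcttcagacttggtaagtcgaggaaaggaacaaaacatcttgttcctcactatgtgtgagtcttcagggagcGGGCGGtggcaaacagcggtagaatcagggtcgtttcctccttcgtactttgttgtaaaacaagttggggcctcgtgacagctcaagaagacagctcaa
Kcnj6: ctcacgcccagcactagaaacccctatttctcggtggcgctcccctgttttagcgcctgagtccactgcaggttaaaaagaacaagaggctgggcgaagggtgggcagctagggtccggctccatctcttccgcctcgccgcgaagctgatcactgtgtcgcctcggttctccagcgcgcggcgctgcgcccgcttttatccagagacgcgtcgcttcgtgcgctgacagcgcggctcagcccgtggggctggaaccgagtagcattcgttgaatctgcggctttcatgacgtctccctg
The GC content was 64.0% for Kcnd3, 57.7% for Kcnn3, 47.0% for Kcns3 and 62.0% for Kcnj6. The median was 52.7% over all 32851 promoters of the table and 58.0% over the promoters of members. The GC box stood once in the Kcns3 promoter, in 35.66% of all promoters and in 47.8% of member promoters. The motif AAAGGTCA, bound by the dopamine neuron factor Nr4a2, was in none of the 4 on either strand and in 1.51% of all promoters. The motif TGTTTGC, bound by Foxa factors, was in the Kcns3 promoter and in 5.07% of all. RefSeq promoters were matched for 67 of the 92 members.

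Levels were set between genes as CPM (reads of a gene scaled to a common library size) per kilobase of exon, averaged over the 40 libraries. The highest was Kcnj10, the astrocyte inward rectifier Kir4.1, at 109 CPM per kilobase, with group means of 84.1 to 137. Kcnab2, the Kv1 beta 2 subunit, followed at 64.2 CPM per kilobase. These are the only members above 40 on this scale.

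Among the voltage-gated families, the fast-spiking Kv3 channels ran from Kcnc4 at 37.6 CPM per kilobase to Kcnc2 at 12.2. Kv1 ran from Kcna6 at 28.2 to Kcna7 at 0.0200, and Kcnq1 was lowest of Kv7, the M-current family, at 0.166. Kv4 ran from Kcnd2 at 18.1 to Kcnd1 at 2.62, and Kcnb2 of the Kv2 family was at 1.59. All of these are levels, not differences.

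The EAG, ERG and ELK family ran from Kcnh2 at 19.6 CPM per kilobase to Kcnh8 at 0.321. The electrically silent Kv subunits, which form no channel alone and modify Kv2, ran from Kcnf1 at 6.12 to Kcnv2 at 0.0516. The calcium- and sodium-activated family ran from Kcnt1 at 15.8 to Kcnn4 at 0.0493. Two-pore channels, which carry leak current, ran from Kcnk1 at 27.4 to Kcnk18 at 0.00302, inward rectifiers down to Kcnj1 at 0.00554, and auxiliary subunits down to Kcne1 at 0.00419.

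**Figure D1:**
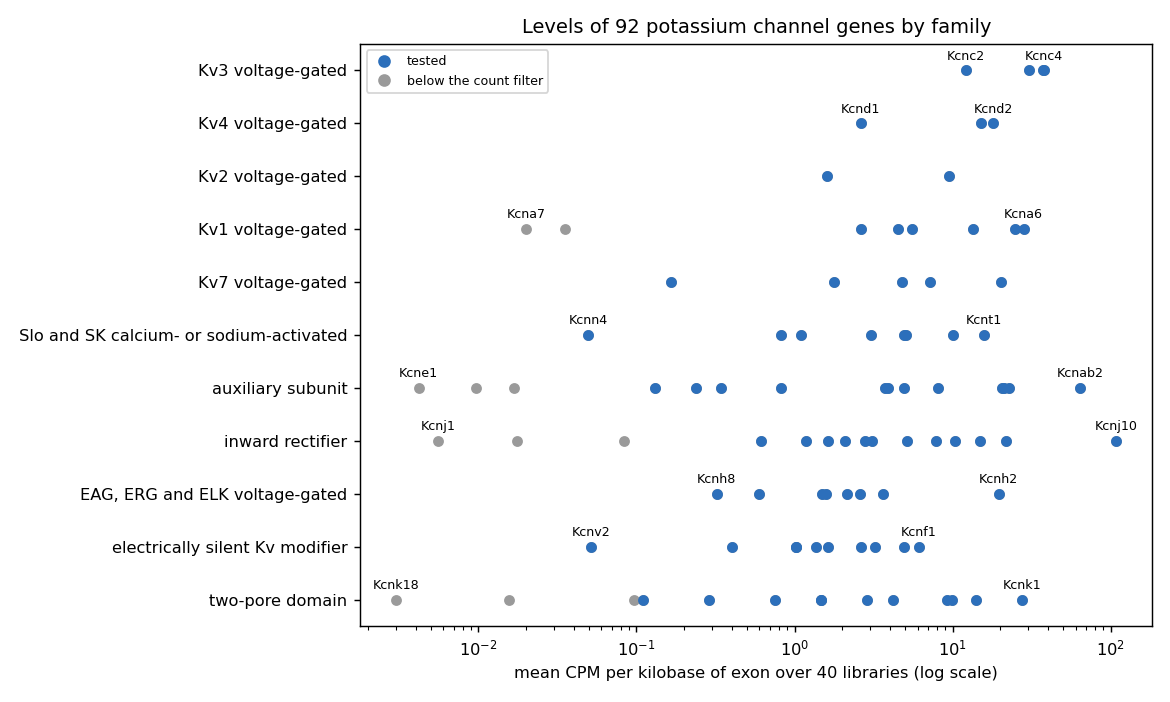
Mean level of each of the 92 genes over 40 libraries, in CPM per kilobase of exon on a log axis, by channel family. The highest and lowest gene of most families are named; Kcnj10 at 109 CPM per kilobase lies farthest right.

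Th, the tyrosine hydroxylase gene that marks dopamine neurons, differed widely between punches of the same group. In the 5 RCF females of C57 it read 1068, 726, 841, 0.725 and 1259 CPM, and in the 5 control males of DBA 19.6, 15.2, 1644, 97.7 and 12.7 CPM. Punches of one group thus held very unequal amounts of dopamine tissue by this marker, and 29 of the 40 libraries lay below a gap between 305.7 and 556.8 CPM. The slope of each gene on log2 CPM of Th was therefore fitted within groups by edgeR's quasi-likelihood test, where a slope of 1 means a doubling for each doubling of Th. In bulk tissue, fewer dopamine neurons and less RNA per neuron cannot be told apart.

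The other dopamine markers moved with Th as a check of the tissue label. Slc6a3, the dopamine transporter, had a slope of 1.56 ± 0.098 (SE), Drd2 of 0.48 ± 0.025 and Nr4a2 of 0.27 ± 0.042. The cortical and pontine marker Slc17a7 ran the other way with a slope of -0.61 ± 0.11. It was at 479.6 CPM or more in 4 libraries and at most 97.27 CPM in the other 36. Those 4 were replicate 4 of the C57 RCF females, replicates 1 and 5 of the C57 control males and replicate 3 of the DBA control females. They were not alike in other markers. The C57 RCF female had a mean log2 CPM of 5.83 for hindbrain marker genes and 2.68 for forebrain glutamate marker genes. In the others, in the order given, the hindbrain means were 0.67, -0.62 and -0.25. Their forebrain glutamate means were 6.71, 5.71 and 6.86.

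Potassium channels split in their relation to Th. Of the 81 tested, 6 rose with Th and 24 fell at an adjusted p under 0.05 (Benjamini-Hochberg), and 51 did not pass. Over all 18440 genes tested, 5.69% rose and 7.9% fell. The median slope was -0.04 over the members and -0.0017 over all genes.

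The 6 that rose were Kcne2, Kcnd3, Kcns3, Kcnn3, Kcnj6 and Kcnip4. Kcnd3 encodes Kv4.3, the pore of the A-type current. In the C57 RCF females, in the order of the Th values above, it read 272, 226, 249, 13.0 and 300 CPM. In the DBA control males it read 114, 84.4, 501, 60.4 and 85.8 CPM. In both groups the library or libraries richest in Th were the highest in Kcnd3. Its slope was 0.29 ± 0.032 (adjusted p = 3.2e-08). Kcnd3 overlaps the antisense gene Kcnd3os, whose reads cannot be told apart without the counting strand. Kcnd3 also overlaps Gm43847 on its own strand, and the counting strand would not separate those reads.

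Kcnn3, the SK3 channel that carries the afterhyperpolarization of dopamine neurons, read 108, 81.9, 90.0, 15.3 and 127 CPM in the C57 RCF females and 42.1, 38.8, 163, 34.7 and 30.7 CPM in the DBA control males. As for Kcnd3, replicate 4 was lowest and replicate 5 highest of the C57 RCF females, and replicate 3 was highest of the DBA control males. The slope was 0.26 ± 0.022 (adjusted p = 1.12e-10). Kcns3, an electrically silent subunit that modifies Kv2 channels, had 24.1, 15.7, 20.6, 4.09 and 20.1 CPM in the C57 RCF females. Its slope was 0.29 ± 0.047 (adjusted p = 3.18e-05).

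Kcnj6 encodes GIRK2, the channel opened by D2 autoreceptors. It read 16.0, 9.85, 47.3, 7.04 and 9.28 CPM in the DBA control males, with replicate 3, the library richest in Th, far above the rest. Its slope was 0.13 ± 0.033 (adjusted p = 0.00638). Without that replicate the adjusted p was 0.0553, and that of Kcnip4 0.126. The call of Kcnj6 was also lost in control libraries alone.

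Kcnip4, a calcium-sensing subunit of Kv4 channels, had a slope of 0.07 ± 0.021 (adjusted p = 0.0213). Its call was lost in 6 of 15 alternative runs, among them each strain alone and other tissue markers as covariates. Kcne2, a small beta subunit, had a slope of 0.30 ± 0.095 (adjusted p = 0.031) at levels of at most 0.962 CPM in any library. The call of Kcne2 was lost without any one of 4 libraries. It was also lost in 10 of 15 alternative runs, among them each strain alone and other tissue markers as covariates. Of the 12 partner genes, Lrrc55, the gamma 3 subunit of BK channels, rose with Th at 0.17 ± 0.021 (adjusted p = 3.17e-07). Abcc8, Amigo1 and Adam22 fell, at -0.05, -0.04 and -0.02. The call of Abcc8 was lost without replicate 4 of the C57 RCF females (-0.03, adjusted p = 0.222), and that of Adam22 without any one of 18 libraries. Dpp6 and Dpp10, the Kv4 partners, did not pass (0.02 and 0.0087).

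The 6 rising genes were also fitted on each side of the gap in Th. Within the 11 libraries above the gap, 3 of them passed. Kcnd3 had a slope of 0.74 (adjusted p = 0.00184), Kcnn3 of 0.78 (adjusted p = 0.000551) and Kcnip4 of 0.54 (adjusted p = 0.0383). The other 3 did not pass there, with slopes of 1.03 for Kcns3 (adjusted p = 0.104), 0.77 for Kcnj6 (adjusted p = 0.0883) and 0.87 for Kcne2 (adjusted p = 0.746). Within the 29 below the gap, the slopes were 0.01 for Kcnd3 (adjusted p = 0.876), 0.07 for Kcnn3 (adjusted p = 0.138) and -0.10 for Kcnj6 (adjusted p = 0.335). No member was called as rising below the gap. The difference between the slopes on the 2 sides was not tested. Th was centred within groups, so a group with 1 library on a side carried no slope there. Above the gap this held for replicate 5 of the DBA RCF females, replicate 3 of the DBA control males and replicate 3 of the C57 control males. No other DBA library lay above it, so the slopes there rest on C57 libraries. Below the gap it held for replicate 4 of the C57 RCF females, the library lowest in Th.

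**Figure D2:**
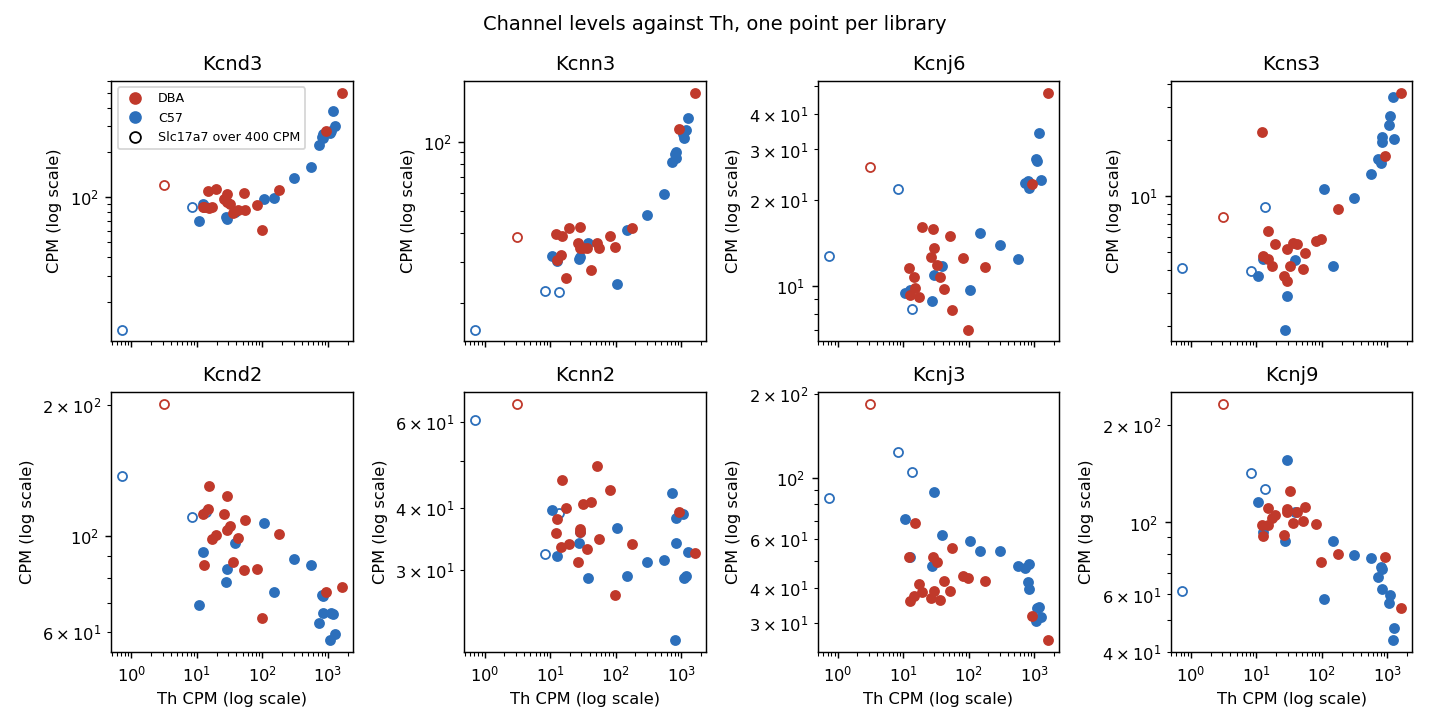
Channel level against Th in each of the 40 libraries, both in CPM on log axes, DBA in red and C57 in blue. Open circles are the 4 libraries with Slc17a7 over 400 CPM. Kcnd3 and Kcnn3 climb at high Th, where Kcnj3 and Kcnj9 are low. Kcnd3 (13.0 CPM) and Kcnn3 (15.3 CPM) are lowest in the library lowest in Th, replicate 4 of the C57 RCF females.

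Relatives of these channels within their families fell or did not pass. Kcnj3 (GIRK1) had a slope of -0.15 ± 0.024 (adjusted p = 2.57e-05) and Kcnj9 (GIRK3) of -0.11 ± 0.020 (adjusted p = 0.000191), while Kcnj5 (GIRK4) did not pass, at 0.0081 ± 0.054 (adjusted p = 0.953). Kcnj3 read 38.6, 68.7, 25.9, 43.6 and 36.0 CPM in the DBA control males, lowest where Kcnj6 was highest. Both Kcnj3 and Kcnj9 fell on each side of the gap, though above it the slope rests on C57 libraries only. Both calls were lost with other tissue markers as covariates. That of Kcnj3 was also lost in DBA libraries alone, and that of Kcnj9 in RCF libraries alone. Kcnd2 (Kv4.2) fell at -0.09 ± 0.013 (adjusted p = 4.52e-06) and Kcnn2 (SK2) at -0.05 ± 0.013 (adjusted p = 0.0116). Kcnd1 (Kv4.1) had -0.02 ± 0.012 (adjusted p = 0.348) and Kcnn1 (SK1) -0.04 ± 0.017 (adjusted p = 0.135), neither past the threshold. These 4 genes of the Kv4 and SK families lay outside the rule for named genes and were chosen after their values were seen.

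Among the other falling channels were Kcnh7 (ERG3), at -0.18 ± 0.028 (adjusted p = 1.63e-05), Kcnk12, a two-pore subunit, at -0.17 ± 0.025 (adjusted p = 3.61e-06), and Kcnq5, an M-current subunit, at -0.17 ± 0.032 (adjusted p = 0.000249). The silent subunits Kcns1, Kcng2, Kcnf1, Kcns2 and Kcng1 fell by 0.14 to 0.19 on the log2 scale for each doubling of Th. Of the genes that fell, Kcnj4 had the steepest slope at -0.31 ± 0.104 (adjusted p = 0.0413), and Kcnh5 fell by 0.14. Further members that fell had slopes from -0.12 to -0.05. The calls of Kcnj4, Kcng2, Kcnf1 and Kcng1 were lost without any one of at least 5 libraries. The calls of Kcns1 and Kcna2 were lost without replicate 4 of the C57 RCF females. With other tissue markers as covariates, the calls of Kcnh7, Kcnk12, Kcnq5, Kcns2 and Kcnh5 were lost. Without the 4 libraries high in Slc17a7, Kcnk12 had -0.067 (adjusted p = 0.153) and Kcnh5 -0.092 (adjusted p = 0.0749). Kcnh7, Kcnq5 and Kcns2 still passed there.

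By family, falls were found in 5 of 10 silent subunits, 5 of 11 two-pore channels, 4 of 12 inward rectifiers and 3 of 8 EAG, ERG and ELK channels. They were found in 2 of 4 Kv3 channels and in 1 each of 6 Kv1, 3 Kv4, 5 Kv7, 8 Slo and SK and 12 auxiliary genes. Kcnj11, Kcnj10, Kcnip3, Kcnma1 and Kcnk9 did not pass, with slopes between -0.03 and 0.02, and Kcnk3 fell at -0.09 ± 0.020.

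**Figure D3:**
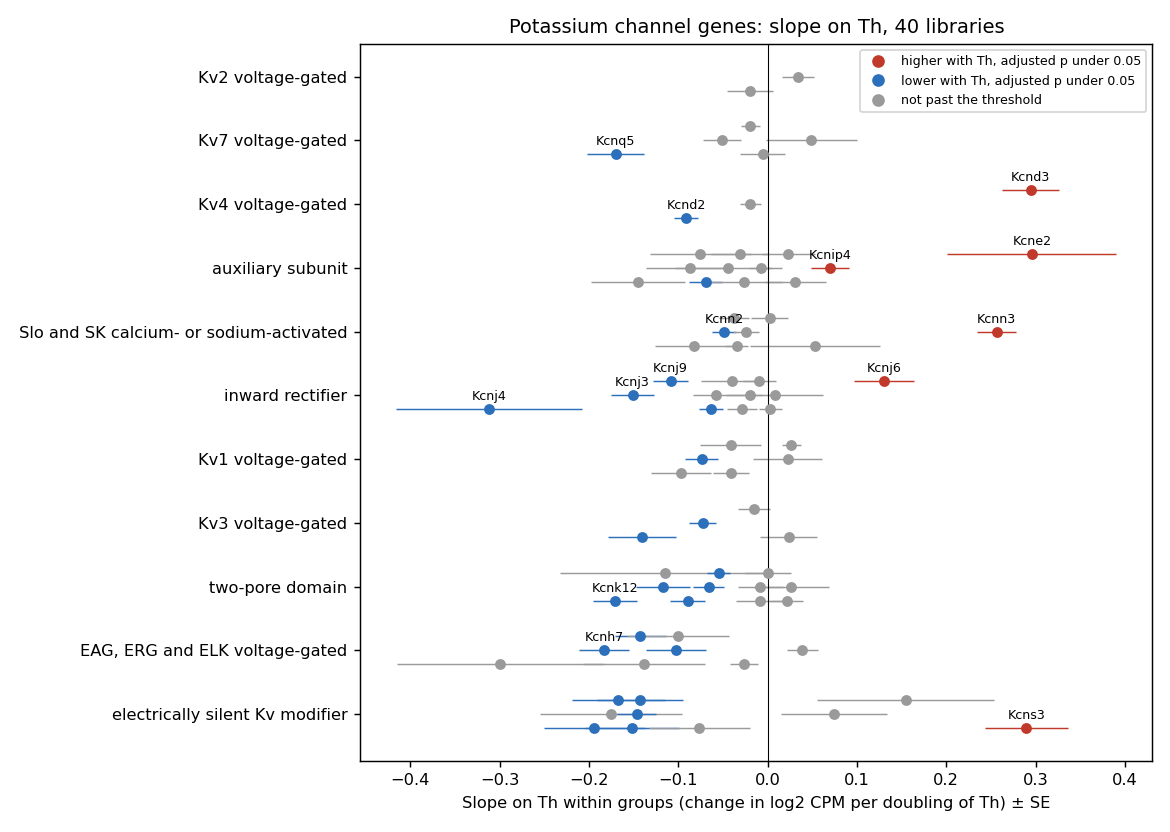
Slope of each tested gene on Th within groups, in change of log2 CPM per doubling of Th, with SE, by family. Red genes rose and blue genes fell at an adjusted p under 0.05; Kcnd3, Kcns3, Kcne2 and Kcnn3 lie between 0.26 and 0.30.

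On Slc17a7, 35 members rose and 3 fell, against 11.3% and 6.71% of all genes. Of the 24 members that fell with Th, 19 rose with Slc17a7 and 5 did not pass, namely Kcnq5 (adjusted p = 0.0603), Kcnh1 (0.059), Kcng2 (0.376), Kcnk3 (0.591) and Kcnk10 (0.68). Kcnk12 (0.24 ± 0.025), Kcnh7 (0.22 ± 0.032) and Kcnj3 (0.20 ± 0.025) were among those that rose with Slc17a7. With other tissue markers as covariates, 4 members fell with Th and 4 rose, and without the 4 libraries high in Slc17a7, 17 fell and 7 rose. The shares over all genes in these runs were not counted. The part that other tissue plays in the falls was not tested beyond these values.

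On the mean of the dopamine marker list, 29 members passed (13.5% of all genes), and on the forebrain glutamate list 33 (14.3%). On the oligodendrocyte list 9 rose (9.26%) and 11 fell (10.5%), and on the hypothalamic and mammillary list 4 rose (3.59%) and 10 fell (4.77%). Slc17a6, the subcortical glutamate marker, gave 9 (4.4%) and the microglia list 6 (5.08%). None passed on the GABA neuron (0.228%), serotonin neuron (0.0163%), hindbrain (0.0163%), astrocyte (1.71%) or endothelial and pericyte (1.13%) lists. At an unadjusted p under 0.05 the GABA list gave 19 members, or 23.5% of those tested against 10.1% of all genes.

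Th slopes did not differ between the strains for any member at an adjusted p under 0.05, against 0.0108% of all genes by edgeR, and 4 members (4.94%) had an unadjusted p under 0.05, against 6.62% of all genes. DESeq2 and voom also called 0. Kcnd3 had slopes of 0.23 in DBA and 0.33 in C57, Kcnn3 of 0.23 in DBA and 0.27 in C57, and Kcnj6 of 0.13 in each. In DBA libraries alone Kcnd3 and Kcnn3 kept their calls, while those of Kcnj6, Kcns3, Kcnip4 and Kcne2 were lost. In C57 libraries alone the calls of Kcnip4 and Kcne2 were lost.

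No potassium channel gene passed for RCF against control. In each of the 4 comparisons within strain and sex, and in their mean, edgeR called 0 of 81 members, and DESeq2 and voom also called 0. Of all genes, 0.0108% passed in C57 males, 0.00542% in C57 females, 0.0163% in DBA males, 0.0163% in DBA females and 0.0217% in the mean. The median SE of a log2 fold change over all genes was 0.18.

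At an unadjusted p under 0.05 there were 13 members in C57 males, 13 in C57 females, 4 in DBA males, 12 in DBA females and 12 in the mean. These are 16%, 16%, 4.94%, 14.8% and 14.8% of the members tested, in that order, against 7.07%, 12.5%, 6.72%, 12.3% and 6.95% of all genes. All 13 in C57 males were lower in RCF, while in C57 females 8 were higher and 5 lower. In DBA females 2 were higher and 10 lower. The median log2 fold change of the members was -0.20 in C57 males, 0.03 in C57 females, 0.11 in DBA males and -0.23 in DBA females. The libraries high in Slc17a7, with which 35 members rose, were unevenly spread over these comparisons. They were controls in C57 males and DBA females, and RCF in C57 females, where the library was the one high in hindbrain markers. These counts and medians were not computed without them, and the part of other tissue, cortical or hindbrain, in the directions was not tested.

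The smallest p-values in C57 males were those of Kcnu1 (log2 fold change -0.62 ± 0.21 SE), Kcnip3 (-0.36 ± 0.13) and Kcnh3 (-2.68 ± 1.003), each with an adjusted p of 0.637. In C57 females they were those of Kcna1 (1.32 ± 0.42), Kcng2 (-1.58 ± 0.52) and Kcnj11 (0.41 ± 0.14), with adjusted p from 0.228 to 0.243. In DBA males they were Kcnmb1 (2.10 ± 0.65), Kcnj12 (0.39 ± 0.17) and Kcna3 (0.72 ± 0.34). None of these passed an adjusted p of 0.05. Several rested in part on 1 library. Kcna1 had 0.43 without replicate 4 of the C57 RCF females, Kcng2 -0.83 without replicate 5 of the C57 control females, and Kcnmb1 1.05 without replicate 2 of the DBA RCF males. Without replicate 1 of the C57 control males, Kcnip3 had -0.20 and Kcnh3 -1.59.

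Kcnj11, the Kir6.2 pore of the KATP channel, read 18.8, 20.7, 20.4, 19.9 and 19.4 CPM in DBA RCF females and 26.9, 30.2, 34.1, 24.5 and 28.1 CPM in DBA control females. The 5 RCF values lay below all 5 control values. Its log2 fold change was -0.53 ± 0.14 with an adjusted p of 0.204. In C57 females the values were 33.6, 32.9, 34.0, 49.4 and 28.0 CPM in RCF and 17.8, 26.4, 31.6, 34.4 and 23.3 CPM in control, with a fold change of the other sign that did not pass either. Next in DBA females were Kcnh3 (-3.04 ± 1.03) and Kcnk1 (-0.44 ± 0.16).

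In the mean of the 4 differences the smallest p-values were those of Kcnv1 (-1.12 ± 0.36), Kcnj4 (-1.43 ± 0.49) and Kcnmb1 (0.91 ± 0.31), each with an adjusted p of 0.683. Kcnj4 read 66.0 and 28.7 CPM in the C57 control males high in Slc17a7 and 54.7 CPM in the DBA control female high in it. Of the 4 libraries high in Slc17a7, 3 were controls. Without those 4, the log2 fold changes were -0.0075 for Kcnj4 and 0.0074 for Kcnv1, while Kcnmb1 had 0.83. Kcnh3, whose gene overlaps Mcrs1, then had 1.62 in C57 males and -0.089 in DBA females, and Kcnj11 had -0.46 in DBA females, with no adjusted p under 0.05.

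For no member did a difference in the RCF effect pass between strains (0.0108% of all genes passed, and 2 members, or 2.47% against 6% of all genes, had an unadjusted p under 0.05), nor between sexes (0.00542%, and 5 members, or 6.17% against 8.48%). The smallest p-values were those of Kcnq5 between strains (1.113 ± 0.39, adjusted p = 0.793) and of Kcna4 between sexes (0.59 ± 0.20, adjusted p = 0.477). DESeq2 and voom called 0 in both.

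**Figure D4:**
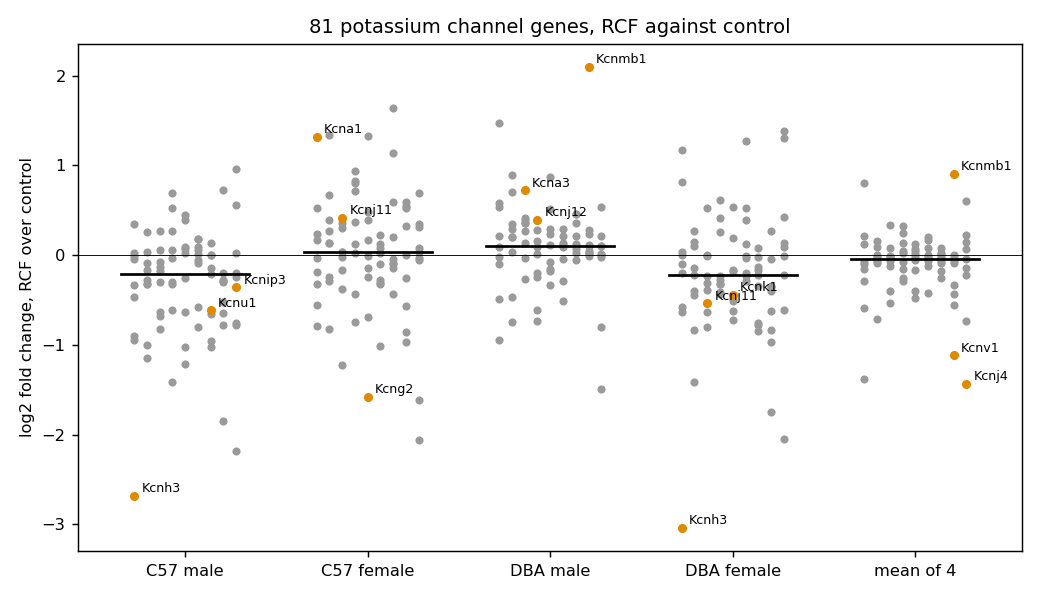
log2 fold change of RCF over control for the 81 tested genes in each strain and sex and in the mean of the 4, with the median as a bar. The 3 genes with the smallest p are named in orange; none passed an adjusted p of 0.05.

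Between the strains 16 channel genes differed. Averaged over sex and treatment, 9 members were higher and 7 lower in DBA than in C57 at an adjusted p under 0.05, against 17.1% and 17% of all genes, while the members' shares were 11.1% and 8.64%. Th itself was lower in DBA (log2 fold change -1.94 ± 0.76, adjusted p = 0.0458), with a median of 30.7 CPM in DBA and 228 CPM in C57. With Th as a covariate 5 members were higher and 10 lower, and without the 4 libraries high in Slc17a7, 22 were higher and 8 lower. The shares over all genes in these runs were not counted, so these moves cannot be called particular to the channels.

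The KATP channel genes differed between the strains. Kcnj11 had a lowest, median and highest level of 16.4, 24.4 and 34.1 CPM in the 20 DBA libraries and of 17.8, 32.8 and 49.4 CPM in the 20 C57 libraries. The strains overlapped, and DBA was lower by a log2 fold change of -0.48 ± 0.072 (adjusted p = 1.53e-06). Kcnj8 (Kir6.1), found in vessels, was also lower in DBA, at -0.35 ± 0.091 (adjusted p = 0.00273). The call of Kcnj8 was lost in the control libraries alone.

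Their sulfonylurea receptors split. Abcc8 (SUR1), the partner of Kir6.2 in neurons, was higher in DBA, at 0.33 ± 0.089 (adjusted p = 0.00399). The call of Abcc8 was lost in the RCF libraries alone (0.26, adjusted p = 0.127). Abcc9 (SUR2), the partner in vessels, was lower in DBA, at -0.42 ± 0.079 (adjusted p = 5.25e-05). Kcnj8 and Abcc9 thus both fell in DBA, while Kcnj11 fell and Abcc8 rose. All 8 genes of the endothelial and pericyte marker list had a lower median in DBA, and the mean log2 CPM of the list ran over libraries from 4.70 to 5.34 in DBA and from 5.03 to 5.87 in C57. Vtn had a median of 46.4 CPM in DBA and 66.7 CPM in C57, and Cldn5 of 19.1 CPM in DBA and 27.1 CPM in C57. No gene of the list had a median of 0. The part of vessel tissue in the differences of Kcnj8 and Abcc9 was not tested.

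Kcnh6 (ERG2) had a lowest, median and highest level of 5.91, 11.1 and 14.7 CPM in DBA and of 4.26, 6.89 and 10.04 CPM in C57. It was higher in DBA by 0.62 ± 0.095 (adjusted p = 2.45e-06). Kcnj10 had 334, 676 and 899 CPM in DBA and 374, 460 and 689 CPM in C57, a difference of 0.49 ± 0.087 (adjusted p = 2.69e-05). The ranges of both genes overlapped between the strains. The call of Kcnj10 was lost in the control libraries alone.

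Also higher in DBA were Kcnmb2, a BK beta subunit (0.64 ± 0.17), Kcnk9, the TASK-3 leak channel (0.34 ± 0.090), Kcnk2, the TREK-1 leak channel (0.34 ± 0.12), Kcnc2 (0.40 ± 0.15), Kcnd2 (0.31 ± 0.11), Kcnj9 (0.33 ± 0.13) and Kcnt1, a sodium-activated channel (0.18 ± 0.072). Lower in DBA were Kcnip3 (-0.32 ± 0.067), Kcns1 (-1.13 ± 0.36), Kcnn4 (-1.001 ± 0.38), Kcnmb1 (-0.81 ± 0.31) and Kcne2 (-2.34 ± 0.53). Kcnmb1 overlaps Kcnip1 on the opposite strand, which leaves the source of its reads uncertain. The calls of Kcnc2, Kcnt1, Kcnj9, Kcnn4 and Kcnmb1 were lost without any one of at least 6 libraries. Kcns1 had -0.55 without the 4 libraries high in Slc17a7 (adjusted p = 0.099), and its call was also lost by voom. In the control libraries alone, only Kcnh6, Kcnj11, Kcnip3 and Kcne2 kept their calls among the members that differed between the strains. That of Kcne2 was lost in the RCF libraries alone. Kcnd2, Kcnj9, Kcnk2, Kcnt1 and Kcnn4 lost their calls with Th as a covariate, while Kcnj11, Kcnh6 and Kcnip3 passed in each alternative run.

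**Figure D5:**
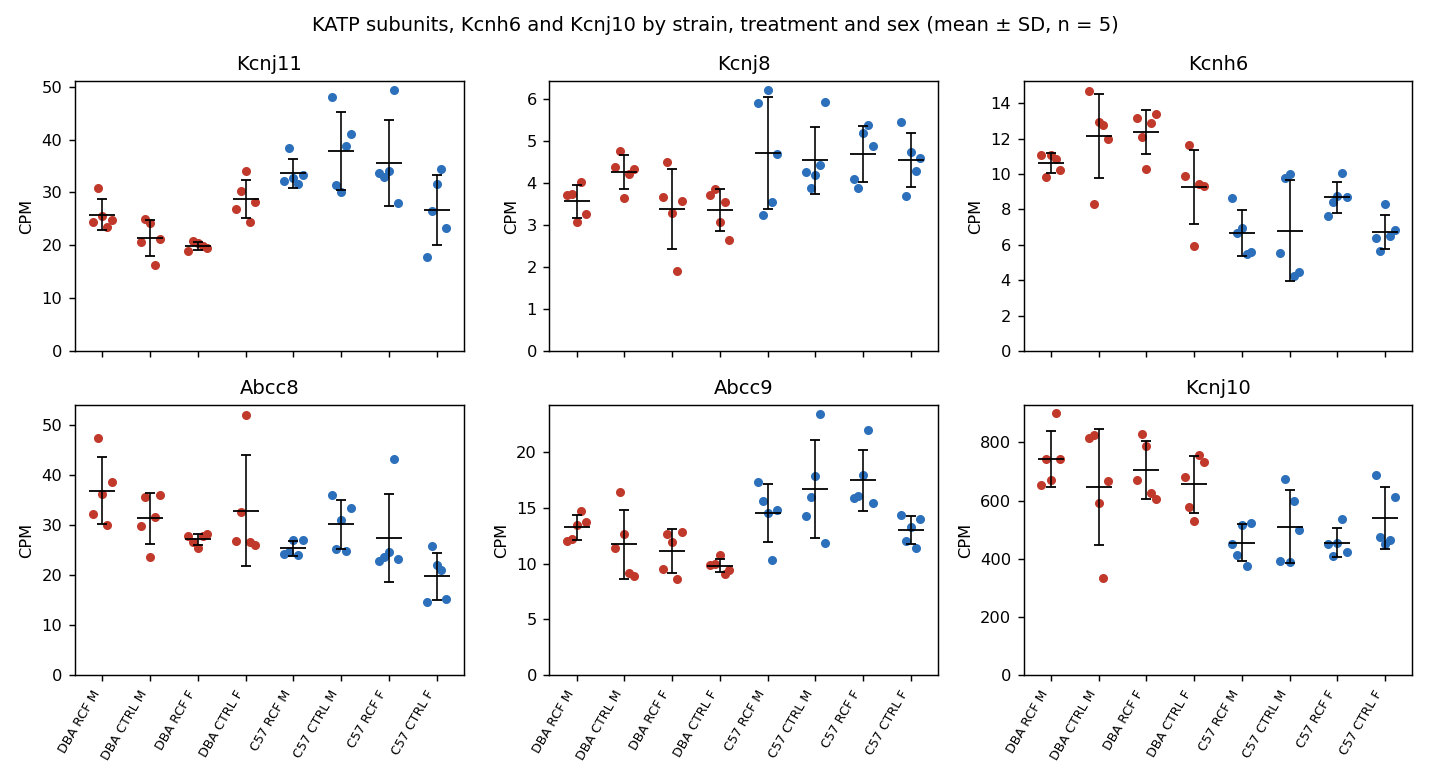
CPM of Kcnj11, Kcnj8, Kcnh6, Abcc8, Abcc9 and Kcnj10 in each library, with the group mean and SD (n = 5), DBA groups left in red and C57 groups right in blue. Kcnj11, Kcnj8 and Abcc9 lie lower in DBA; Kcnh6, Kcnj10 and Abcc8 lie higher.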

How the data were processed

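Per the labels' protocols, ventral tegmental punches gave RNA for stranded single-end mRNA libraries. The authors deposited whole-number read counts per gene; bcl2fastq 2.20, cutadapt 1.11, FastQC and the build GRCm38 are named in the submitters' processing notes. No source used here gives the aligner, the counter, the annotation or the strand setting of the counting, so reads of overlapping genes are uncertain.

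Symbols, positions and exon lengths came from GENCODE M21 (GRCm38). Genes were kept by filterByExpr over the 8 groups (18441 genes), scaled by TMM, and fitted with edgeR 4.0.16 in R 4.3.3, as a robust quasi-likelihood model with one mean per group over all 40 libraries. CPM are TMM-scaled. The Th slope added log2 CPM of Th centred within groups, with a prior count of 2. P-values were adjusted by Benjamini-Hochberg over all genes tested, with a threshold of 0.05. The fits were tested on simulated data. Alternatives were DESeq2 1.42.0, voom (limma 3.58.1), other scalings, filters and covariates, subsets, a replicate block and leaving out each library; leaving out the 4 libraries high in Slc17a7 was chosen after seeing the data.

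Named genes were, for the Th slope, the 12 largest passing slopes each way plus a list of dopamine-related channels and partners; for RCF, those passing or the 3 smallest p; for strain, the 12 smallest p each way; and the highest and lowest of each family. Members and lists were chosen with earlier results of these data known. Some members that the rule names are not reported here.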

Additional observations from a re-analysis of the deposited data

Results flagged for a closer look

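For 12 channel genes, each group of 5 was examined for 1 library standing far from the other 4 on the log2(CPM + 1) scale, which makes 96 groups. It found 17, and chance gives about 1 in 20 groups. They are given as values by library, with its level of Th and Slc17a7.

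Replicate 3 of the C57 control males had 835 CPM of Th and 6.21 CPM of Slc17a7. Kcnd3 read 268 CPM there and 86.1 to 99.1 CPM in the other 4.

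Replicate 4 of the C57 RCF females had 0.725 CPM of Th and 1076 CPM of Slc17a7. Kcnd3 read 13 CPM there and 226 to 300 CPM in the other 4. Kcns3 read 4.09 CPM there and 15.7 to 24.1 CPM in the other 4. Kcnn3 read 15.3 CPM there and 81.9 to 127 CPM in the other 4. Kcnj6 read 12.7 CPM there and 22.9 to 27.8 CPM in the other 4. Kcnd2 read 137 CPM there and 57.4 to 66.4 CPM in the other 4.

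Replicate 5 of the DBA RCF females had 936 CPM of Th and 8.65 CPM of Slc17a7. Kcnd3 read 279 CPM there and 78.1 to 106 CPM in the other 4. Kcns3 read 16.4 CPM there and 3.7 to 5.68 CPM in the other 4. Kcnn3 read 114 CPM there and 34.4 to 38.8 CPM in the other 4.

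Replicate 2 of the DBA RCF males had 12.4 CPM of Th and 18.4 CPM of Slc17a7. Kcns3 read 21.9 CPM there and 3.46 to 4.55 CPM in the other 4.

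Replicate 3 of the DBA control males had 1644 CPM of Th and 2.92 CPM of Slc17a7. Kcns3 read 35.6 CPM there and 4.75 to 6.45 CPM in the other 4. Kcnn3 read 163 CPM there and 30.7 to 42.1 CPM in the other 4. Kcnip4 read 162 CPM there and 59.5 to 64 CPM in the other 4.

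Replicate 3 of the DBA control females had 3.11 CPM of Th and 1312 CPM of Slc17a7. Kcnd2 read 202 CPM there and 98.2 to 108 CPM in the other 4. Kcnj3 read 185 CPM there and 41.4 to 55.5 CPM in the other 4.

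Replicate 1 of the C57 RCF males had 811 CPM of Th and 5.22 CPM of Slc17a7. Kcnn2 read 21.6 CPM there and 28.9 to 32.1 CPM in the other 4.

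Replicate 2 of the C57 RCF males had 1200 CPM of Th and 44.8 CPM of Slc17a7. Kcnj11 read 38.4 CPM there and 31.5 to 33.2 CPM in the other 4.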

How the results depend on the processing

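Of the 945 values for single genes under alternatives other than leaving out 1 library, 154 lost the threshold, 5 gained it and 12 turned direction, and 51 that passed in neither fit had the other sign. The 6 members rising with Th became 3 in control libraries alone, 2 in DBA alone and 0 below the gap, and 3 to 7 when each library was left out in turn, with 3 without replicate 3 of the DBA control males. The 24 falling became 12 in control libraries alone, 7 in DBA alone, 5 above the gap and 4 with other tissue markers as covariates. Slopes that turned were, below the gap, Kcnj6 (-0.095) and Kcnip4 (-0.069); above it, Kcnj4 (0.13) and Abcc8 (0.018); with other tissue markers, Kcnj4 (0.20) and Kcng1 (0.0036); in RCF libraries alone, Kcnj4 (0.063) and Kcnf1 (0.035); and without the 4 libraries high in Slc17a7, Kcns1 (0.025), Kcng1 (0.042), Kcnj5 (-0.12) and Lgi1 (0.061). The 9 members higher in DBA became 1 in control libraries alone, 4 with no low-count filter, 5 with Th as a covariate and 22 without those 4 libraries. The 7 lower became 3 in control and 4 in RCF libraries alone, and 10 with Th as a covariate. The cause of these moves was not tested. For strain, 7.88% of all genes were higher and 8.13% lower in control libraries alone, and 12.4% were lower in RCF libraries alone. In the other runs named here the share over all genes was not counted, so these moves cannot be called particular to the channels. RCF gave 0 members in each alternative run. Replicate numbers showed no pairing in expression: 26 of 140 same-number pairs correlated over 0.1, and 9 of 40 libraries correlated best with their own number. These correlations also hold the tissue differences between punches. Whether libraries of the same number share a litter or day was not tested. With the replicate block, 6 members rose and 20 fell with Th, 7 were higher and 6 lower in DBA, and 0 passed for RCF. Members at or below 1 CPM, such as Kcne2, rest on few reads.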
